A study of Mus musculus with 6 samples.

Results

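The presynaptic active zone is the patch of axon terminal membrane where synaptic vesicles dock and fuse, and its protein scaffold was followed here through 10 genes: Bsn, Pclo, Rims1, Rims2, Unc13a, Unc13b, Erc1, Erc2, Ppfia2 and Ppfia3. The genes were listed by name, by their known place in the scaffold, and found by symbol among the 18160 genes of the deposited table. All 10 were present, and all were among the 15151 genes tested, those whose normalized counts averaged 10 or more in the 6 samples. RNA sequencing had been done on the prefrontal cortex of mice of the C57BL/6J strain, aged 56 days after birth. The 3 HET samples were heterozygous for a Cyfip2 mutation, which the labels describe no further, and the 3 WT samples were wild type on the same background. CYFIP2 belongs to the WAVE complex, an activator of branched actin assembly, and the comparison of HET with WT asks how transcript levels differ when 1 Cyfip2 allele is mutated. The labels do not say that samples came from separate animals, so p-values measure the spread between these samples, which may be technical.

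Bassoon and piccolo are very large proteins that hold vesicles near the release site. RIM proteins link vesicle-bound Rab3 to calcium channels and to Munc13 proteins, the products of the Unc13 genes, which prepare vesicles for fusion by opening syntaxin. ERC proteins (ELKS and CAST) and liprin-alpha proteins, the products of the Ppfia genes, complete the scaffold, and liprin-alpha also binds receptor tyrosine phosphatases of the LAR type and the kinesin that carries vesicle precursors. In mammals these genes come in families, and related copies are used to different degrees in different neurons. In a bulk sample, fewer cells of a type and less RNA per cell cannot be told apart.

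Totals of normalized counts were 36.4 to 37.1 M over the 6 samples (M for 1e+06). The lowest values imply about 31.9 to 37.5 M reads in HET samples and 27.0 to 48.0 M in WT samples, an estimate from the value of 1 read. At these depths the scaffold genes were deeply sampled: the smallest implied number of reads for any of them was 1495, for Erc1. Cyfip2 itself was at 28356, 28578 and 29567 normalized counts in HET samples, against 45454, 43174 and 45627 in WT samples. It fell in HET by limma-trend (log2 fold change -0.63 ± 0.049, SE; adjusted p = 0.0027). Slc17a7, the vesicular glutamate transporter gene that marks cortical excitatory neurons, was well detected, at 49783 normalized counts in HET and 52578 in WT samples (means, n = 3 each).

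By limma-trend, none of the 10 scaffold genes had an adjusted p below the threshold of 0.05, where 0.0132% of all tested genes did. At an unadjusted p under 0.05 there were 2, both higher in HET: the liprin-alpha gene Ppfia3 and the RIM gene Rims1. Over all tested genes 5.07% reached that level, 2.36% higher and 2.71% lower. The samples of the genotypes did not overlap for 3 of the 10 genes, against 10.5% of all tested genes. Ppfia3 and Rims1 were higher in every HET sample than in any WT sample, as were 5.15% of all tested genes. Bsn was lower in every HET sample, as were 5.3%. The other 7 genes overlapped between genotypes. The median log2 fold change of the 10 genes was -0.028, beside 0.0020 over all tested genes. Of the 10, 8 were below WT, as were 7450 of the 15151 tested genes. Summed over the 10 genes, normalized counts were 109605 to 110041 in HET samples, inside the 106055 to 111693 of WT samples.

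**Figure D1:**
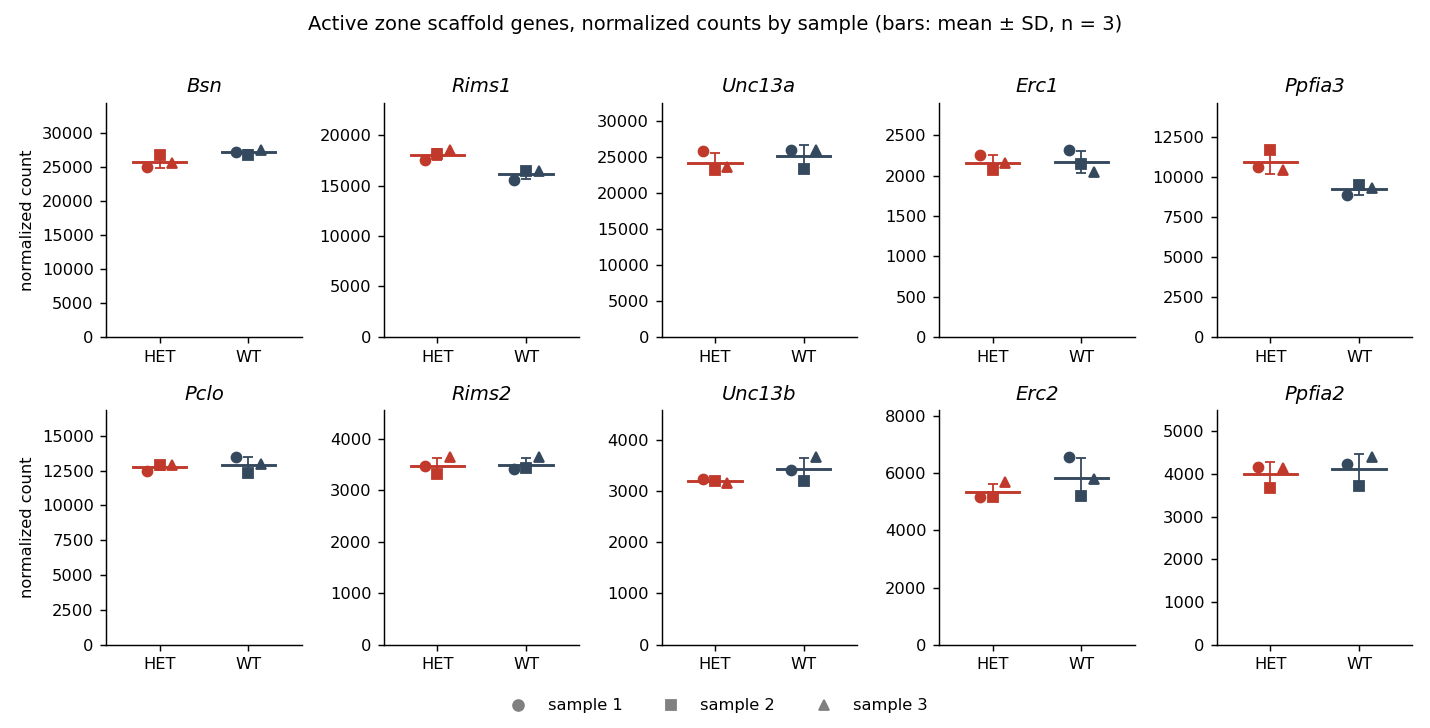
Normalized counts of the 10 scaffold genes in each sample, HET left of WT, with axes starting at 0; marker shapes give the sample number, horizontal lines the mean and error bars the SD (n = 3 per genotype). The HET points of Ppfia3 (10406 to 11693) and Rims1 (17493 to 18548) lie above all WT points, those of Bsn lie just below, and the other genes overlap.

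The stretches before the transcription start are shown for Ppfia3 and Rims1, for Bsn, the third gene whose genotypes did not overlap, and for Ppfia2, a paralogue of Ppfia3 whose genotypes overlapped. Each is the 250 bases upstream of the RefSeq start (GRCm38.p6), 5′ to 3′ on the strand of the gene. For Rims1 and Ppfia2, and for Erc2 (not shown), the bases after this start were not found in a GENCODE M21 transcript of the gene. Their RefSeq starts lie outside the gene positions given below. Capitals mark the GC box letters GGGCGG on either strand. The TATA-box letters TATAAA and the cAMP response element letters TGACGTCA were also searched on both strands and were found in none of the 9 scaffold promoters in the table. Rims2 had no entry. The windows lie at chr7:45367020-45367269 (minus strand), chr1:22806159-22806408 (minus), chr9:108190384-108190633 (minus) and chr10:106470060-106470309 (plus).
Ppfia3: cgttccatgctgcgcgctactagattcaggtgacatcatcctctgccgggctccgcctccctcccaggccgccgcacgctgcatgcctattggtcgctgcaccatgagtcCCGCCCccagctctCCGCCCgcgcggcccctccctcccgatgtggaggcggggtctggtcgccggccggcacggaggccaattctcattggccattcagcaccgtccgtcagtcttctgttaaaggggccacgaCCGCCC
Rims1: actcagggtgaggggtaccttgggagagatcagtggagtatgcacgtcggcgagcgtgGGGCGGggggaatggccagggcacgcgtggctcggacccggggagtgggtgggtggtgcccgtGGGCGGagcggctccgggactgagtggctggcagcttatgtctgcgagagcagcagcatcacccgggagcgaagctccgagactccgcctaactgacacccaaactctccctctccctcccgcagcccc
Bsn: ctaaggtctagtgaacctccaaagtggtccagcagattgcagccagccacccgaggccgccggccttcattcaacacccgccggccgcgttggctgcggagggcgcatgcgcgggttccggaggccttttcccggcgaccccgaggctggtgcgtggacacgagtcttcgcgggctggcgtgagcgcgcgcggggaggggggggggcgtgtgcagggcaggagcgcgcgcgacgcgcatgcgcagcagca
Ppfia2: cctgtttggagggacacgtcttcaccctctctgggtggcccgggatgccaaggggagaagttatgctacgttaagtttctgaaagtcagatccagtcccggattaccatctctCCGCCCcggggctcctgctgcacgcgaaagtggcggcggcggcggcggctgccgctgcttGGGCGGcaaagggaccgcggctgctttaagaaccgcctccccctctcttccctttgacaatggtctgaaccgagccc

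The Ppfia3 window held 3 GC boxes, and those of Rims1 and Ppfia2 held 2 each. The Bsn window held none of these letters, although its GC content was 71.6%, against 67.6% for Ppfia3, 68% for Rims1 and 62.4% for Ppfia2. Among the other scaffold genes, Unc13b had 4 GC boxes, Pclo, Unc13a and Erc1 had 2 each and Erc2 had none. Of 32851 promoter windows of the same length, 32.7% held a GC box, 1.55% a cAMP response element and 12.4% a TATA box. Promoters of genes that overlapped between genotypes and of genes that did not both held GC boxes. These matches describe letters and were not tested against the expression values.

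The liprin-alpha genes gave the largest difference among the 10. Ppfia3 (ENSMUSG00000003863) lies on chromosome 7, 45339122 to 45367019, minus strand (GRCm38), and has the shortest locus of the group at 27.9 kb. Its normalized counts were 10587, 11693 and 10406 in HET samples, against 8858, 9509 and 9314 in WT samples. Every HET sample was above every WT sample, with HET sample 2 the highest and WT sample 1 the lowest. The mean was 10895 ± 696 in HET and 9227 ± 334 in WT (SD, n = 3 each). Its log2 fold change of 0.24 ± 0.059 (SE) puts HET at 118% of WT with a 95% interval of 108% to 129%. The unadjusted p of 0.0024 was the 48th smallest of all tested genes, and the adjusted p was 0.73 by limma-trend. A two-sided exact permutation test gave p = 0.1, below which 3 against 3 samples cannot go.

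Ppfia2, another liprin-alpha gene (chromosome 10, 106470339 to 106935952, plus strand), was at 4168, 3682 and 4143 normalized counts in HET samples, against 4229, 3708 and 4392 in WT samples. The genotypes overlapped fully, and sample 2 was the lowest in both. Its locus overlaps Acss3 on the opposite strand, which was at 40.9 normalized counts in HET and 40.5 in WT samples (means, n = 3 each). Ppfia2 had a log2 fold change of -0.038 ± 0.076 (SE), with a 95% interval of -0.21 to 0.13. The remaining liprin-alpha genes were at log2 fold changes of 0.03 for Ppfia1 and -0.03 for Ppfia4, and overlapped as well. Liprin-beta genes, which pair with liprin-alpha, had the smallest unadjusted p by limma-trend among 11 further family genes. On the log2 scale Ppfibp1 differed by -0.14 ± 0.076 and Ppfibp2 by -0.20 ± 0.13 (SE), and the adjusted p was 0.95 for each by limma-trend. Ppfibp1 was at -0.088 without HET sample 2 and -0.091 without WT sample 3. Ppfibp2 was at -0.087 without WT sample 2 and -0.33 without WT sample 3.

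Rims1 gave the other difference with an unadjusted p under 0.05. The gene (ENSMUSG00000041670, chromosome 1, 22286251 to 22805994, minus strand) was at 17493, 18156 and 18548 normalized counts in HET samples, against 15569, 16407 and 16469 in WT samples. Every HET sample lay above every WT sample. The means were 18066 ± 533 in HET and 16149 ± 503 in WT (SD, n = 3 each), so the difference was larger than the spread within either genotype. This is a log2 fold change of 0.16 ± 0.050 (SE), or 112% of WT with a 95% interval of 104% to 121%. The unadjusted p was 0.0086, the adjusted p was 0.83 by limma-trend, and the two-sided exact permutation test again gave p = 0.1.

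Rims2, which encodes the closely related RIM (chromosome 15, 39198261 to 39684372, plus strand), was at 3457, 3311 and 3636 normalized counts in HET samples, against 3417, 3435 and 3634 in WT samples. The highest values of the genotypes differed by only a few counts. Rims2 differed by -0.012 ± 0.057 on the log2 scale (SE), with a 95% interval of -0.14 to 0.12. Rims3 and Rims4, which encode short RIM forms without the Rab3-binding part, were at -0.12 ± 0.084 and -0.06 ± 0.054 (log2 fold change, SE). The RIM-binding protein genes Rimbp2 and Tspoap1 were at -0.09 and -0.05, and the Rab3 effector gene Rph3a at 0.06. All of these overlapped between genotypes.

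**Figure D2:**
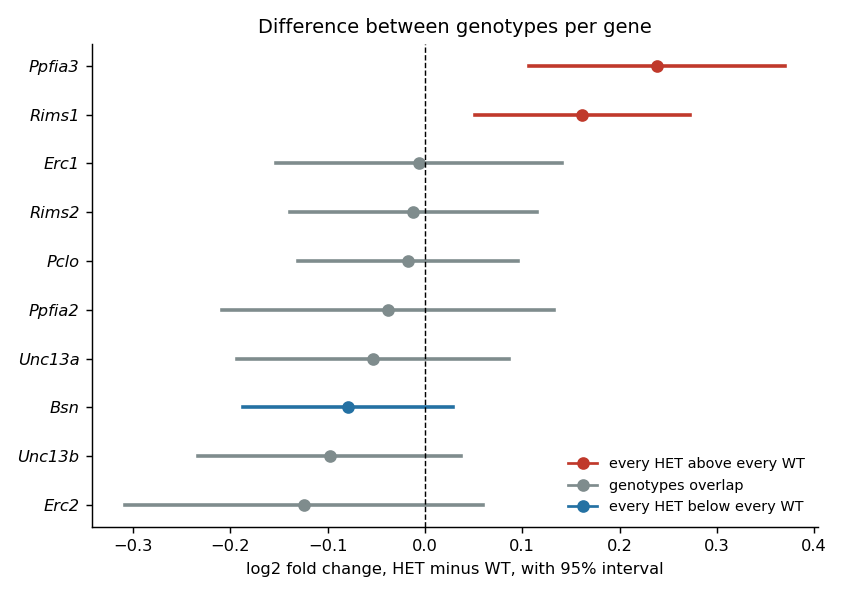
Log2 fold change of each scaffold gene (HET minus WT, points) with its 95% interval from the moderated model (lines), ordered by size; colour shows whether every HET sample lay above or below every WT sample. The intervals of Ppfia3 (0.11 to 0.37) and Rims1 (0.05 to 0.27) lie above 0, and those of the other 8 genes include 0.

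The genes of the very large scaffolds, Bsn and Pclo, lay close to WT. Bsn (chromosome 9, 108096022 to 108190384, minus strand) was at 24953, 26653 and 25489 normalized counts in HET samples, against 27138, 26758 and 27502 in WT samples. The genotypes did not overlap, but HET sample 2 and WT sample 2 were nearly level. The means were 25699 ± 869 in HET and 27132 ± 372 in WT (SD, n = 3 each). The difference was -0.08 ± 0.048 on the log2 scale (SE; unadjusted p = 0.13, adjusted p = 0.95 by limma-trend), with HET at 94.7% of WT and a 95% interval of 87.9% to 102%. After adjustment for GC content and transcript length the log2 fold change was -0.035. Bsn has a GC content of 59.8% over a 15.9 kb transcript, and tested genes with a GC content of 55% or more had a median log2 fold change of -0.013. Ppfia3, at a GC content of 60.5%, was at 0.26 with the same adjustment, against 0.24 without it. The part of GC content and length in the Bsn difference was not tested.

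Pclo (chromosome 5, 14514918 to 14863459, plus strand) was at 12476, 12908 and 12873 normalized counts in HET samples, against 13460, 12329 and 12953 in WT samples. The HET values lay inside the WT range. Its log2 fold change was -0.017 ± 0.051 (SE), with a 95% interval of -0.13 to 0.096.

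The priming genes Unc13a and Unc13b did not separate by genotype. Unc13a (chromosome 8, 71624417 to 71671757, minus strand), the main Munc13 gene of forebrain excitatory synapses, was at 25787, 23195 and 23552 normalized counts in HET samples, against 25992, 23370 and 25919 in WT samples. HET sample 1 and WT samples 1 and 3 were high, and the other samples low. The difference was -0.05 ± 0.063 on the log2 scale (SE), with a 95% interval of -0.19 to 0.086. It depended on each sample: it was -0.10 without WT sample 2 or HET sample 1, and between -0.035 and -0.024 without any other sample. Its locus overlaps Colgalt1 on the opposite strand, and reads of the pair are told apart only if the counting used strand (not given in the sources used here). Colgalt1 was at 2206 ± 27.4 in HET and 2023 ± 49.6 in WT samples (SD, n = 3 each; unadjusted p = 0.042, adjusted p = 0.95 by limma-trend).

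Unc13b (chromosome 4, 43058953 to 43264871, plus strand) was at 3236, 3195 and 3157 normalized counts in HET samples, against 3416, 3199 and 3663 in WT samples. The HET samples were the tightest of any scaffold gene, with a coefficient of variation of 1.24%, and lay below WT samples 1 and 3 and beside WT sample 2. Unc13b had a log2 fold change of -0.10 ± 0.060 (SE; unadjusted p = 0.14), with a 95% interval of -0.23 to 0.037. It was -0.15 without WT sample 2 and -0.05 without WT sample 3. Unc13c, known mainly from cerebellum, was at 976 in HET and 975 in WT samples, and Unc13d, known from immune cells, at 113 in both (mean normalized counts).

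Erc2 had the largest SE of the 10 genes. The gene (chromosome 14, 27622428 to 28478537, plus strand), the brain-enriched copy known as CAST, was at 5191, 5183 and 5684 normalized counts in HET samples, against 6569, 5195 and 5802 in WT samples. WT sample 1 stood above all others, while WT sample 2 was level with HET samples 1 and 2. The coefficient of variation was 5.36% in HET and 11.8% in WT samples. Erc2 had a log2 fold change of -0.12 ± 0.082 (SE; unadjusted p = 0.16), with HET at 91.7% of WT and a 95% interval of 80.8% to 104%. It was -0.04 without WT sample 1 and -0.21 without WT sample 2. Erc1 (chromosome 6, 119570796 to 119848167, minus strand), the more widely expressed ELKS gene, was at 2257, 2065 and 2158 normalized counts in HET samples, against 2320, 2145 and 2046 in WT samples. The genotypes overlapped, and the log2 fold change was -0.0058 ± 0.066 (SE), with a 95% interval of -0.15 to 0.14.

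For the 8 genes other than Ppfia3 and Rims1, the 95% intervals ran from 80.8% of WT at the lowest (Erc2) to 110% at the highest (Erc1). A change of 2-fold lies outside all 10 intervals. Smaller changes could go uncalled at 3 samples per genotype, and not only those of several percent. Ppfia3 at 118% of WT and Doc2a, a fusion machinery gene, at 122% each had an adjusted p of 0.73 by limma-trend.

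Related genes were then set against each other within each sample, which removes any scaling that a sample shares across genes. The log2 ratio of Rims1 to Rims2 was 2.34, 2.45 and 2.35 in HET samples, against 2.19, 2.26 and 2.18 in WT samples. All HET ratios lay above all WT ratios, by 0.17 on average. A two-sided exact permutation test gave p = 0.1, the limit of this design. The log2 ratio of Ppfia2 to Ppfia3 was -1.34, -1.67 and -1.33 in HET samples, against -1.07, -1.36 and -1.08 in WT samples. The mean difference was -0.28, but WT sample 2 lay below HET samples 1 and 3, and the exact p was 0.3. The other pairs overlapped too: the difference was -0.06 for Bsn to Pclo (exact p = 0.2), 0.04 for Unc13a to Unc13b (exact p = 0.5) and 0.12 for Erc1 to Erc2 (exact p = 0.3). These were 5 ratios, and no p reaches 0.05 in this design.

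**Figure D3:**
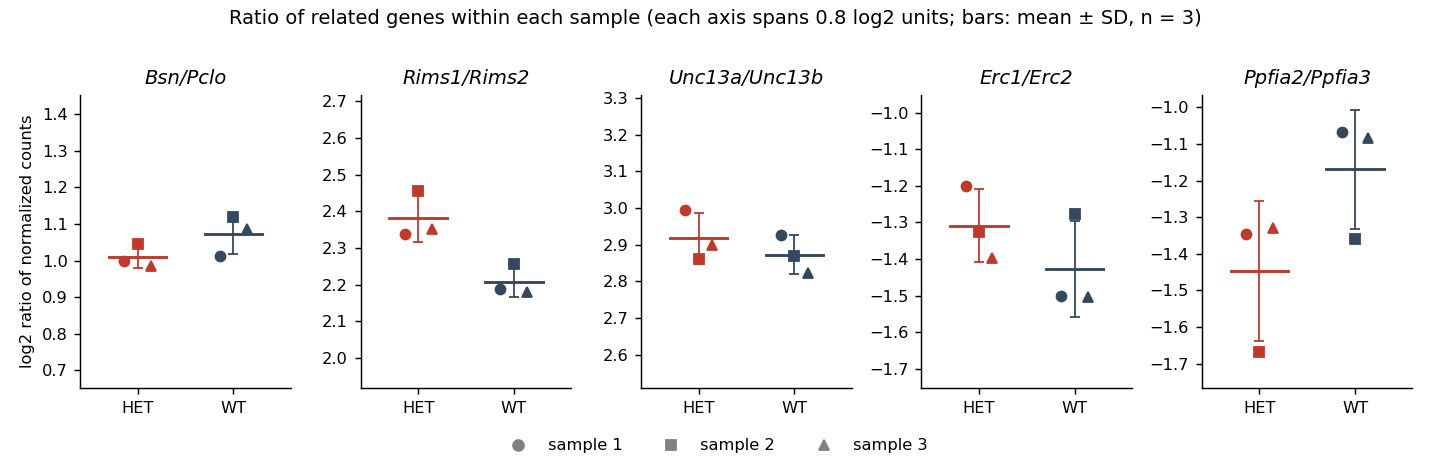
Log2 ratio of the normalized counts of related genes within each sample, HET left of WT; every axis spans 0.8 log2 units around its own centre, lines are means and error bars SD (n = 3). The Rims1/Rims2 ratio separates the genotypes (2.34 to 2.45 in HET, 2.18 to 2.26 in WT), and the other 4 ratios overlap.

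Levels of different genes were compared per kb of the longest protein-coding transcript in GENCODE M21. Rims1 came first, at 2803 ± 82.7 normalized counts per kb in HET and 2505 ± 78.0 in WT samples (SD, n = 3 each). Unc13a followed at 2358 ± 137 in HET and 2447 ± 146 in WT samples, and Ppfia3 at 2345 ± 150 in HET and 1986 ± 71.9 in WT samples. Over all samples Rims1 overlapped Unc13a and Unc13a overlapped Ppfia3, so the order of these 3 is not fixed. Bsn, at 1612 in HET and 1702 in WT samples, was below them without overlap. Erc2 (859 in HET, 939 in WT), Rims2 (723 in HET, 728 in WT), Pclo (635 in HET, 643 in WT) and Ppfia2 (450 in HET, 463 in WT) formed a middle range, each step without overlap between neighbours. Erc1 (247 in HET, 248 in WT) and Unc13b (217 in HET, 232 in WT) were lowest and overlapped each other.

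The per-length level of Ppfia3 exceeded that of 93.4% of tested genes, that of Bsn 90.7% and that of Unc13b 47.9%. The level depends on the transcript used. With the second-longest protein-coding transcript, Unc13b came to 486 per kb in HET and 521 in WT samples, Bsn to 3428 in HET and 3620 in WT, and Unc13a to 4276 in HET and 4438 in WT, so Bsn and Unc13a would pass Rims1. Which transcripts were present cannot be read from gene-level values.

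**Figure D4:**
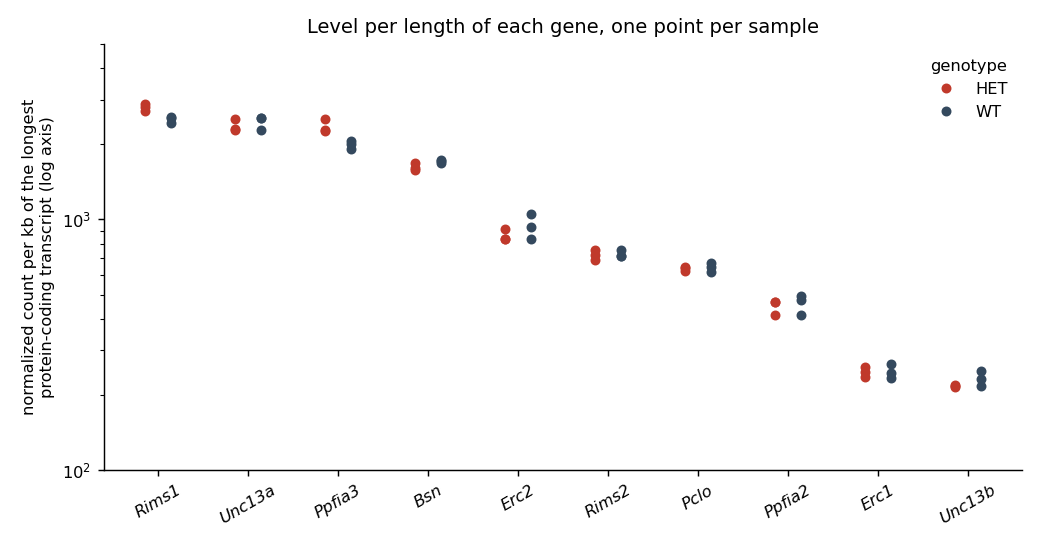
Normalized count per kb of the longest protein-coding transcript for each scaffold gene on a log axis, one point per sample, HET left of WT, genes ordered by their WT mean. Levels run from about 217 per kb (Unc13b in HET) to 2803 per kb (Rims1 in HET), a wider range than any difference between genotypes.

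The samples differed in how the scaffold genes sat together. The mean log2 difference of the 10 genes from their mean over 6 samples was 0.0020, -0.018 and 0.012 in HET samples 1, 2 and 3, and 0.03, -0.06 and 0.03 in WT samples 1, 2 and 3. WT sample 1 held the highest value for 4 genes and WT sample 3 for 3, while HET sample 2 held the lowest for 4. The genes whose standardised profile over the 6 samples was most like the mean profile of the 10 were Bmpr2, Cinp, Sbno1, Arhgap32 and Spred1, with correlations of 0.992 to 0.996 over 6 samples. This likeness is a description: 296 of 15141 other genes had a correlation above 0.9, and Rims1 and Ppfia3 themselves ran against the mean profile at -0.34 and -0.50.

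The partners of the scaffold gave no call. Of 23 partner genes, 14 were above and 9 below WT, with a median log2 fold change of 0.013, and none passed the adjusted threshold or reached an unadjusted p under 0.05 by limma-trend. Kif1a, the kinesin that binds liprin-alpha, was at 56187, 58123 and 57166 normalized counts in HET samples, against 52487, 54187 and 53047 in WT samples. Its HET samples were all above its WT samples, at a log2 fold change of 0.10 ± 0.048 (SE; unadjusted p = 0.057, adjusted p = 0.95 by limma-trend). Rapgef4, a cAMP sensor that binds RIM and piccolo, was at 0.10 ± 0.052 (log2 fold change, SE). Rab3a, the main vesicle Rab bound by RIM, was at 0.07, and the LAR-type phosphatase genes Ptprs, Ptprd and Ptprf were at -0.02, -0.08 and -0.13. Of the 11 further family genes, 3 were above and 8 below WT, with a median of -0.051 and no unadjusted p under 0.05.

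Of 10 calcium channel genes of the presynapse, which RIM proteins tether, 2 were above and 8 below WT, with a median log2 fold change of -0.08. None passed the adjusted threshold by limma-trend. At an unadjusted p under 0.05 there was 1, lower in HET, beside 2.71% of all tested genes lower at that level. For 2 genes, Cacnb1 and Cacnb3, every HET sample was below every WT sample, as for 5.3% of all tested genes. Cacnb1, a beta subunit gene, was at 5286, 5084 and 5395 normalized counts in HET samples, against 6078, 5607 and 5613 in WT samples. The genotypes did not overlap, and the log2 fold change was -0.13 ± 0.054 (SE; unadjusted p = 0.035, adjusted p = 0.95 by limma-trend). Cacna1b, the pore of N-type channels, was at -0.15 ± 0.069, and Cacna1a, the pore of P/Q-type channels, at -0.05 ± 0.058 (log2 fold change, SE). Cacna1b was at -0.22 without WT sample 2 and -0.088 without WT sample 3. The unadjusted p of Cacnb1 by limma-trend was 0.056, 0.12 and 0.13 without HET sample 1, HET sample 2 and WT sample 1.

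Of 19 genes of the fusion machinery, 7 were above and 12 below WT (median log2 fold change -0.019), and of 16 vesicle protein genes 9 were above and 7 below (median 0.021). In each list 0 passed the adjusted threshold by limma-trend and 1 reached an unadjusted p under 0.05, beside 5.07% of all tested genes. Doc2a, a calcium sensor that binds Munc13, was at 1879, 1832 and 1921 normalized counts in HET samples, against 1587, 1396 and 1633 in WT samples. Its genotypes did not overlap, and its log2 fold change was 0.29 ± 0.071 (SE; unadjusted p = 0.0022, adjusted p = 0.73 by limma-trend). Cplx2, a complexin gene, was at -0.15 ± 0.065. Slc32a1, the vesicular GABA transporter gene, was at 0.17 ± 0.066 and Syngr3 at 0.10 ± 0.050 (log2 fold change, SE). Without HET sample 1 Slc32a1 was at 0.11, and its unadjusted p by limma-trend was 0.10, against 0.026 with all samples; it was 0.052 without WT sample 2 and 0.082 without WT sample 3.

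Across the synapse, 11 of 15 postsynaptic scaffold genes were below WT and 4 above, with a median log2 fold change of -0.11, beside -0.028 for the presynaptic scaffold. None passed the adjusted threshold by limma-trend, and 6 reached an unadjusted p under 0.05, all lower, where 2.71% of all tested genes did so in that direction. Shank1, a large scaffold gene of excitatory synapses, was at -0.16 ± 0.058 (log2 fold change, SE; unadjusted p = 0.017, adjusted p = 0.91 by limma-trend). Its unadjusted p was 0.065 without HET sample 3 and 0.086 without WT sample 3. The difference between the lists was not tested.

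Cell-type markers differed between samples as well. All 11 deep-layer markers were above WT in HET, with a median log2 fold change of 0.19 and a summed level of 11781 to 12506 normalized counts in HET samples, against 10012 to 11118 in WT samples. Of 10 upper-layer markers 3 were above and 7 below WT, with a median log2 fold change of -0.13. They summed to 61637 to 69319 in HET and 62626 to 74122 in WT samples. At an unadjusted p under 0.05 by limma-trend, 4 upper-layer markers were lower and 1 higher, and 3 deep-layer markers were higher and 0 lower. Over all tested genes 2.71% were lower and 2.36% higher at that level. No marker of either list passed the adjusted threshold. Of 12 interneuron markers 10 were above WT, summed at 47564 to 49814 in HET and 45089 to 49342 in WT samples. Of 7 pan-neuronal markers 2 were above WT, summed at 230810 to 235614 in HET and 235378 to 249644 in WT samples. Of 7 cortical excitatory markers 2 were above WT. The sums of the 7, 193933 to 208512 in HET samples, all lay below the 211616 to 217653 of WT samples. Camk2a was the largest part of these sums, at 129070 to 145525 in HET and 142718 to 153504 in WT samples, and overlapped. Of the 7 markers, 2 were lower in every HET sample, as were 5.3% of all tested genes. Rims1, Ppfia3 and the deep-layer sum were each higher in every HET sample than in any WT sample. Within genotypes, sample 3 was the highest for Rims1 in both HET and WT. In both it was also the highest for the mean of the upper-layer markers and the lowest for the mean of the deep-layer markers. Ppfia3 and the deep-layer mean shared the lowest HET sample (3) and the highest WT sample (2). The highest HET sample was 2 for Ppfia3 and 1 for that mean. The lowest WT sample was 1 for Ppfia3 and 3 for that mean. The part of these markers in the result was not tested.

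Of 10 astrocyte markers 8 were above WT, summed at 172696 to 185877 in HET and 158989 to 187703 in WT samples. All 10 myelin markers were below WT, summed at 124281 to 132750 in HET and 127800 to 178025 in WT samples, and the highest sum was that of WT sample 2. Of 9 microglial, 9 endothelial and 9 meningeal markers, 6, 8 and 8 were above WT. Their sums were 13118 to 13920, 13538 to 15772 and 6414 to 7359 in HET samples, against 11828 to 14630, 11783 to 15208 and 5535 to 6803 in WT samples. Of 4 oligodendrocyte precursor markers and 5 blood genes 3 each were above WT, and of 10 striatal markers 4. Precursor markers summed to 5090 to 5696 in HET and 5405 to 6020 in WT samples, and blood genes to 6295 to 6857 in HET and 5780 to 7559 in WT samples. Striatal markers summed to 7826 to 8661 in HET and 8954 to 10100 in WT samples, without overlap. No marker of any list was at 0 in a sample. The part of these markers in the scaffold values was not tested.

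**Figure D5:**
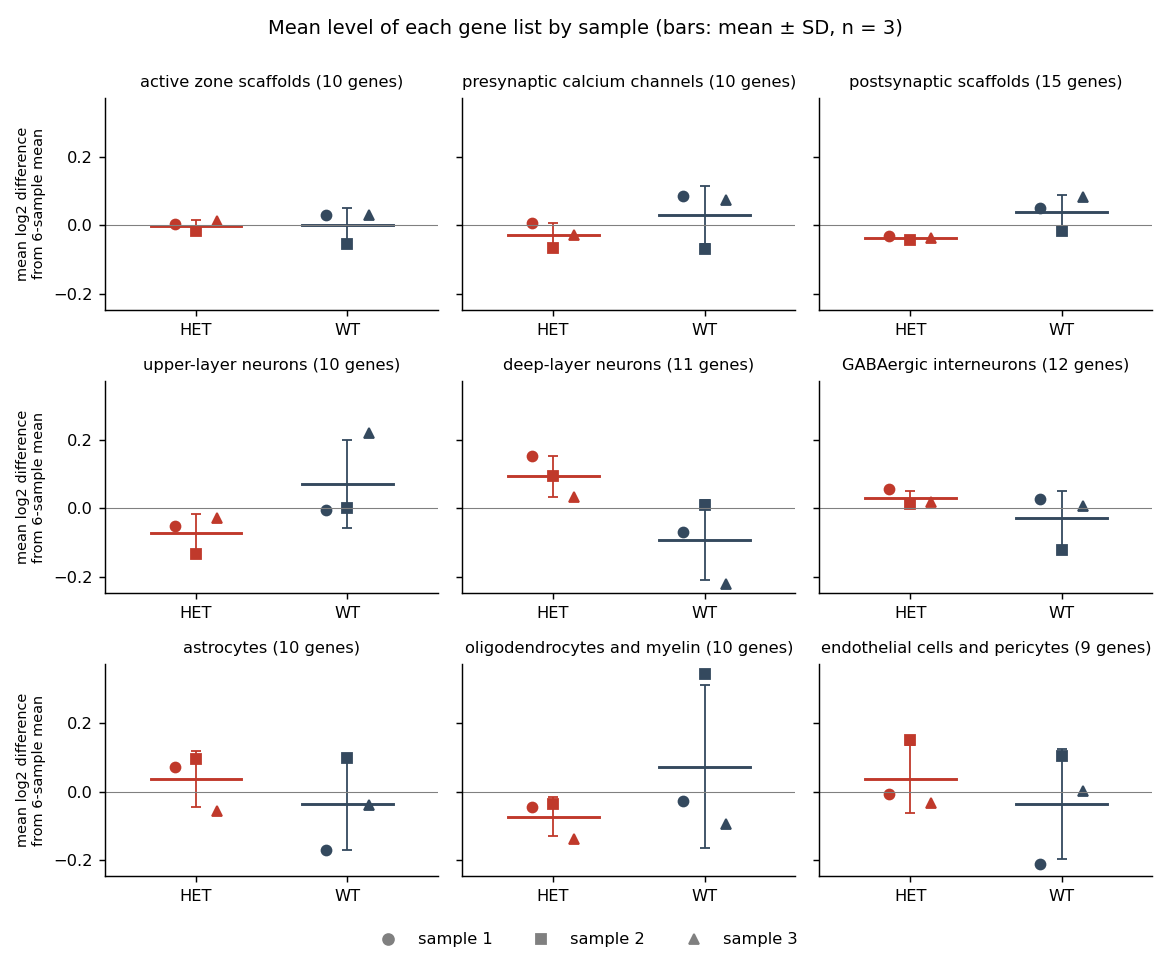
Mean log2 difference of the genes of 9 lists from their mean over the 6 samples, for each sample, HET left of WT; lines are means and error bars SD (n = 3). The active zone scaffolds stay between -0.06 and 0.03 in all samples, while deep-layer markers lie at 0.03 to 0.15 in HET and -0.22 to 0.0093 in WT, and the myelin list is highest in WT sample 2.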

How the data were processed

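Poly(A)-selected, stranded libraries (TruSeq Stranded mRNA) of 6 samples were compared, 3 HET against 3 WT, with genotype and number taken from the titles. Per gene, the deposited table gives a signal that the authors normalized between samples; it holds neither raw counts nor values per length. Per the submitters' processing notes, Salmon 0.11.2, R 3.6.0, DESeq2 1.19.11 and GRCm38 were used, in roles not stated there. Annotation release and gene filter: not given in the sources used here. Low values sat near multiples of 1 read, but only 21.0% to 40.3% of values of 10 to 20 reads lay within 0.1 of a whole read, so no count model was used.

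The test was limma-trend (limma 3.58.1, R 4.3.3) on log2(value + 1), with genotype as the only term, over all 15151 genes with a mean of at least 10. Adjustment was by Benjamini-Hochberg, the threshold was 0.05, and intervals are 95% intervals of the moderated model. A fold change on this scale understates that of low genes. Exact permutation tests used scipy 1.17.1. The fit was tested on simulated data before use. Symbols were matched for 18122 of 18160 identifiers, and gene positions are those of GENCODE M21 (GRCm38).

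The 10 genes and all 20 gene lists were chosen with earlier results of these data known. Named genes were the 10, Cyfip2, the genes past the threshold or else the 2 with the smallest p in each of 6 lists around the scaffold, and the 5 with the most similar profile; 1 gene that this rule names is not reported here. Other genes were named after their values were seen: Slc17a7, Colgalt1 and the further family, partner and channel genes. No pair of samples of a genotype agreed within counting noise (mean chi-square per gene 8.94 to 24.3). Alternatives were another scaling, variance model, filter or pseudocount, sample weights, GC and length adjustment, a block for the sample number, and omission of each sample in turn.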

Additional observations from a re-analysis of the deposited data

How the results depend on the processing

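None of the 10 scaffold genes passed the adjusted threshold under any of the 17 alternatives. Ppfia3 and Rims1 stayed above WT in all of them, with log2 fold changes of 0.19 to 0.27 and 0.14 to 0.18, unadjusted p of 1.9e-04 to 0.013 and 0.0010 to 0.042, and adjusted p of 0.23 to 1.00 and 0.25 to 1.00 by limma. The median of the 10 ranged from -0.070 to -0.0023 when 1 sample was left out, the lowest without WT sample 2. Over all genes, 1 was called by limma without a trend, with a mean of at least 50 and with the replicate block and GC and length adjustment together, and 1 to 4 when a sample was left out. Cyfip2 lost its call without the trend (adjusted p = 0.15).

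Values near 0 changed sign. Erc1 was at 0.0071 with array weights and 0.0097 with GC and length adjustment, with or without the block, and Pclo at 0.0061 with that adjustment, with or without the block. When 1 sample was left out, log2 fold changes ran from -0.048 (without WT sample 3) to 0.043 (without WT sample 1) for Erc1, -0.050 (without WT sample 2) to 0.013 (without WT sample 1) for Pclo, and -0.046 (without HET sample 3) to 0.021 (without HET sample 2) for Rims2. They ran from -0.11 (without WT sample 2) to 0.020 (without HET sample 2) for Ppfia2, -0.16 to 0.0086 for Arhgap32 and -0.13 to 0.019 for Spred1. The cause was not tested.

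The labels do not say that equal sample numbers pair the samples, and the values do not settle it. Deviations of same-numbered samples correlated over genes at 0.13, 0.12 and -0.0052 for numbers 1, 2 and 3. Differently numbered samples correlated at -0.16 to 0.046, so numbers 1 and 2 were most like their own number and number 3 was not. With the replicate block 2 genes were called, and Ppfia3 and Rims1 had adjusted p of 0.24 and 0.25. With 3 samples per genotype, differences of a few percent could not be resolved, and the larger differences of Ppfia3 and Rims1 were not called either.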
